A study of Rattus norvegicus with 9 samples.

Results

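The genes described here are those of monoamine, acetylcholine and histamine signalling in the rat thalamus: receptors for serotonin, dopamine, noradrenaline, histamine and acetylcholine, and the enzymes and transporters that make, package, recover and degrade these transmitters. The list held 55 genes, and 53 of them were measured by 74 probe sets that carry 1 gene symbol each, out of 14217 genes and 31042 rat probe sets in all. Tph2, the enzyme that makes serotonin in neurons, and Ache, which breaks down acetylcholine, were not analysed here. Expression was measured on single-colour oligonucleotide arrays hybridised with thalamic RNA from male Wistar rats. The animals were 3 weeks old at the start, and the labels give 5 weeks as the age of each sample. All had 2 preparatory days on powdered feed and were then split into groups of similar mean weight, which received either solid chow (4 arrays) or the powder (5 arrays) for 8 days. Per the labels 10 rats were used. Which rat gave each sample is not stated, and the spread behind every p-value here may therefore be partly technical. The comparison addresses whether food that must be chewed changes thalamic gene expression, and every difference below is chow minus powder.

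Monoamines and acetylcholine reach the thalamus in long axons from cell groups outside it, chiefly in the brainstem, hypothalamus and basal forebrain. There they set the firing mode of relay neurons and so the flow of sensory signals to the cortex during sleep and waking. The cell bodies that hold the mRNAs of the synthetic enzymes and reuptake transporters lie mostly outside the thalamus. The mRNAs of postsynaptic receptors and of the degrading enzymes can also be made by cells within it. In bulk tissue, fewer cells of a type and less RNA per cell cannot be told apart.

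The deposited values were of 2 kinds. For 41 of the 53 measured genes the 9 array values of the representing probe set spanned less than 0.01 log2 units (at most 0.00336, in Chrnb4), and these are called narrow here. The other 12, called wide, spanned at least 0.310 (Chat). Over the whole array, 84.4% of probe sets were narrow. The differences of the narrow members were therefore at most 0.000556 in size (Slc6a2), even where they passed the test, and cannot be read as biological fold changes. Levels are given on the deposited log2 scale, and no level is set against that of another gene. The array called chow 1 stood apart: it gave the lowest or the highest value for 60.8% of the 2414 wide genes, against 7.08% to 25.5% for each of the other arrays. The mean of 9 measured markers of thalamic relay neurons (of 10 listed) was 9.84 on chow 1 and 10.2 to 10.4 on the other arrays. The mean of 7 measured striatal markers (of 8 listed) was 8.82 on chow 1 and 7.88 to 8.06 elsewhere. Differences of wide members are therefore given with and without chow 1.

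Of the 53 genes, 17 were higher under chow, 0 were lower and 36 were not called at a Benjamini-Hochberg adjusted p under 0.05 in limma. Over all genes, 14.2% were called higher and 18.8% lower (32.9% in either direction). Maoa, the monoamine oxidase that degrades serotonin and noradrenaline, was the 1 wide gene among the 17, and the other 16 were narrow. Among all wide genes, 9.03% were higher and 40.2% lower (49.3% called), and among all narrow genes 15.2% were higher and 14.4% lower. The 17 comprised 5 of 13 serotonin receptors, 3 of 3 dopamine receptors, 1 of 7 adrenergic, 1 of 3 histamine and 3 of 5 muscarinic receptors, 2 of 8 nicotinic subunits, 1 of 6 transporters and 1 of 3 measured degrading enzymes, with 0 of 5 measured synthetic enzymes. The median difference over the 53 was 0.000217, and over all genes it was -7.19e-06. Over the 12 wide members the median was -0.0068, against -0.125 over all wide genes. All 4 chow arrays lay above all 5 powder arrays for 16 of the 53 and below them for 0, while over all genes these shares were 12.3% and 16.9%. Without chow 1, 14 members were higher and 0 lower (9.64% of all genes higher). Without chow 3, 18 were higher and 2 lower, the 2 being the histamine receptor Hrh3 (-0.24, adjusted p = 0.0491) and the adrenergic receptor Adra1d (-0.000179, adjusted p = 0.0307), against 18.6% of all genes lower.

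The level of a narrow probe set moved with its call. When all 11803 narrow genes were split into 4 bands of equal size by mean level, 25.2% of the dimmest band and 21.7% of the next were higher under chow, against 6.64% and 7.35% of the brighter bands. The lower calls ran the other way, at 2.13%, 10.7%, 25.8% and 19.0% from the dimmest band to the brightest. Of the 41 narrow members, 17 lay in the dimmest band and 6 of them were higher, 20 lay in the next and 10 were higher, and the remaining 4 lay in the brighter bands with 0 called. The part of signal level in these calls was not tested. Array medians differed as well, with a mean of 7.3936 ± 0.0024 over the 4 chow arrays and 7.4001 ± 0.0017 over the 5 powder arrays (SD, exact permutation p = 0.00794, two-sided, the smallest this design allows). That shift of -0.00657 exceeds the largest narrow difference among the members. After quantile normalization 21 members were higher and 0 lower, with 9 of the original 17 among them, and after subtraction of array medians 43 were higher and 0 lower. Over all genes the same alternatives gave 8329 higher and 1000 lower, and 12112 higher and 1133 lower.

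**Figure D1:**
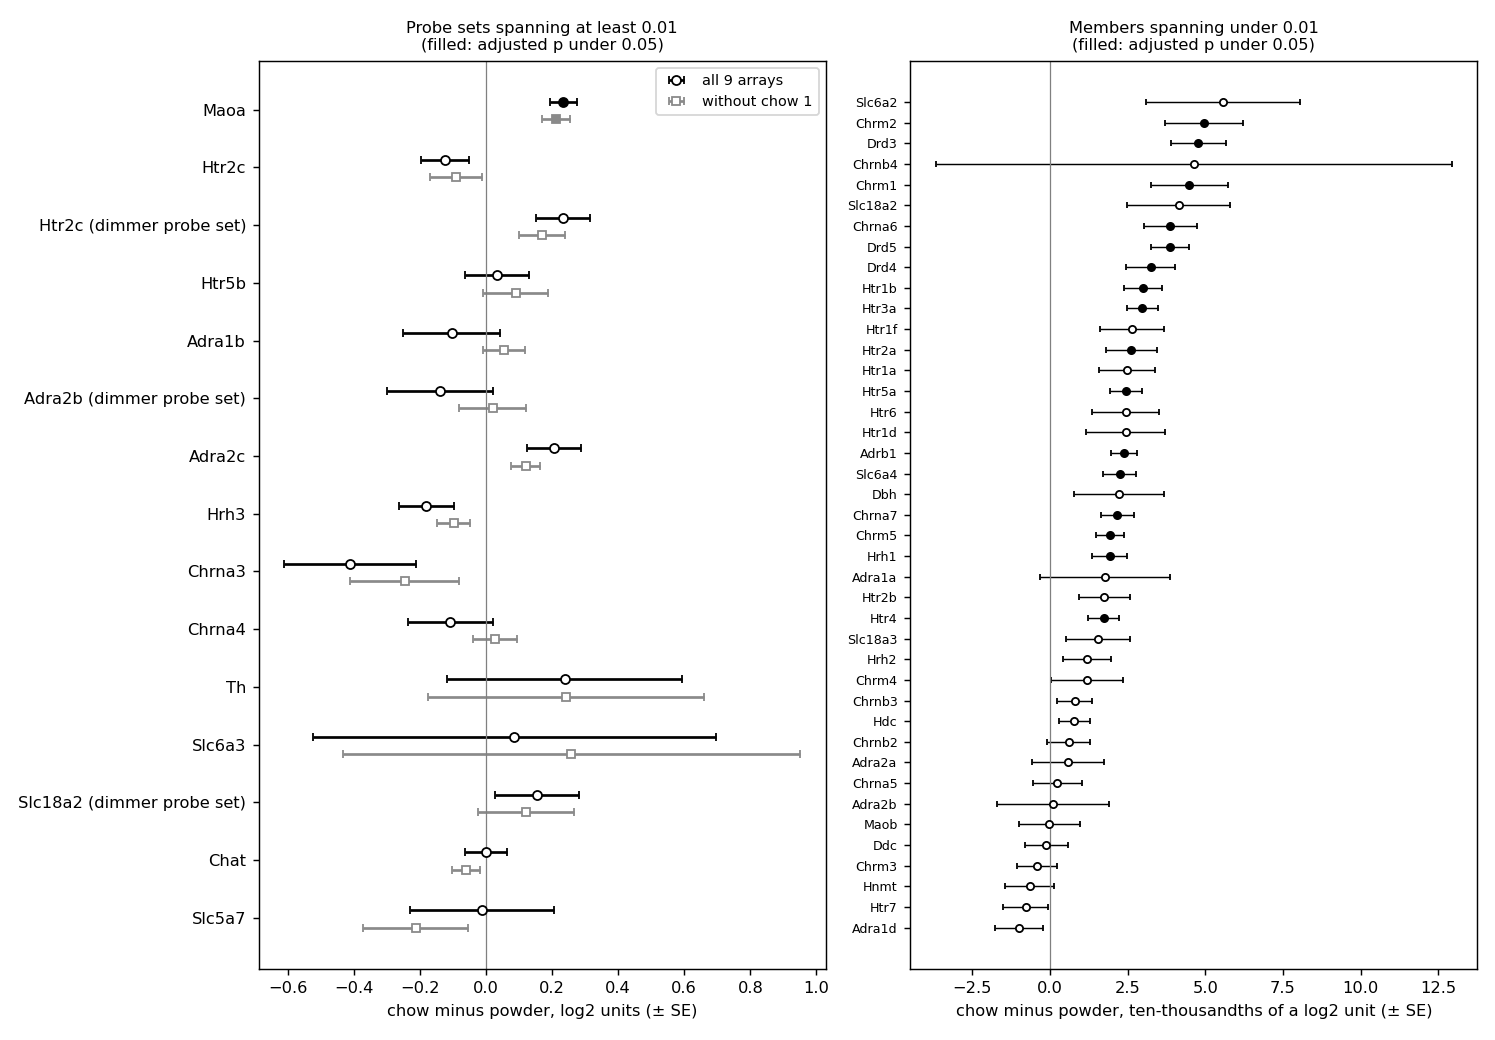
Differences between chow and powder (log2 units, bars ± SE) for the 15 wide member probe sets on the left, with all 9 arrays (black) and without chow 1 (grey), and for the 41 narrow member genes on the right, in ten-thousandths of a log2 unit. Filled symbols passed an adjusted p of 0.05. On the left only Maoa is filled, and on the right the 16 filled genes all lie above 0.

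Degrading enzymes were where the one wide call fell. Maoa, on the outer mitochondrial membrane, oxidises serotonin, noradrenaline and dopamine. The 250 bases upstream of its start are shown because it is the member with a measurable change. They lie on chromosome X of GRCr8, minus strand, chrX:8681373-8681622, in sequence credited to RefSeq, and capitals mark GC boxes (GGGCGG or its reverse complement CCGCCC), the motif bound by Sp-family factors.
Maoa: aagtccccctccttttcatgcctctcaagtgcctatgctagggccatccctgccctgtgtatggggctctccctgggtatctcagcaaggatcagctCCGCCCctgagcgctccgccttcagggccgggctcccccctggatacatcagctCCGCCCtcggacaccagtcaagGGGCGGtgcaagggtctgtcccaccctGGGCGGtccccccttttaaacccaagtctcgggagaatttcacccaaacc
The 4 GC boxes begin 153, 99, 77 and 50 bases before the start, and the window holds 62.4% G and C.

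Maoa stood at 9.67, 9.64, 9.60 and 9.50 on chow arrays 1 to 4 and at 9.33, 9.34, 9.36, 9.45 and 9.37 on powder arrays 1 to 5. Every chow array lay above every powder array, the nearest being chow 4 and powder 4. The means were 9.60 ± 0.0756 and 9.37 ± 0.0497 (SD, n = 4 and 5), a difference of 0.23 ± 0.041 (1.18-fold, adjusted p = 0.00729 over all genes). The call held when each of the 9 arrays was left out in turn, with differences from 0.21 (without chow 1) to 0.27 and adjusted p from 0.00553 to 0.0212. It was not made when a difference beyond 0.1 was required (adjusted p = 0.206). The single Maoa probe set has an identifier ending in _s_at, a suffix for probes that can match more than 1 transcript. Among markers of other cells, 2 of 7 vessel markers were lower (the wide Flt1 and Slco1a4) and 1, the narrow Pdgfrb, was higher. Over all genes, 18.8% were lower and 14.2% higher. The vessel list mean was 8.41 to 8.55 under chow and 8.51 to 8.59 under powder. Of 7 astrocyte markers 1, the narrow Slc1a2, was higher and 0 lower. Their list mean was 10.39 to 10.53 under chow and 10.49 to 10.53 under powder. The 3 wide astrocyte markers were not called. Aqp4 (-0.14 ± 0.046, adjusted p = 0.0567) and Gfap (-0.20 ± 0.115, 0.205) were negative, and Slc1a3 was positive (0.02 ± 0.094, 0.874). On all chow arrays Aqp4 lay below every powder array, while the narrow Slc1a2 and S100b lay above every powder array. The part of these cells in the Maoa difference was not tested.

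Maob, the neighbour of Maoa on the X chromosome in the RefSeq gene order, encodes the oxidase known from astrocytes and from serotonin and histamine neurons. Its probe set was narrow. Relative to its 9-array mean of 9.30, it stood in ten-thousandths of a log2 unit at 2.46, -1.10, -0.82 and -0.57 on chow 1 to 4 and at -1.35, -1.18, 0.12, 2.07 and 0.38 on powder 1 to 5. The groups overlapped, and chow 1 and powder 4 were the highest arrays. The difference was -1.69e-06 ± 9.88e-05 (adjusted p = 0.992). It became positive and was called under both rescalings, at 0.0294 after quantile normalization and 0.00657 with array medians subtracted, each larger than the span of its 9 deposited values. Hnmt, which inactivates histamine by methylation, was narrow and not called (-6.50e-05, adjusted p = 0.544).

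Among the enzymes and transporters of the transmitter neurons themselves, Slc6a3 and Th varied most between arrays, and neither was called. Th makes the dopamine precursor L-DOPA, Slc6a3 takes dopamine back up into the terminal, and Slc18a2 loads monoamines into vesicles. Their upstream sequences are shown because the first 2 had the widest ranges of all members. All 3 genes lie on chromosome 1 of GRCr8 (RefSeq): Th on the minus strand, chr1:207508219-207508468, Slc6a3 on the minus strand, chr1:31578963-31579212, and Slc18a2 on the plus strand, chr1:268399771-268400020. Capitals mark the cyclic AMP response element (CRE, TGACGTCA) and GC boxes.
Th: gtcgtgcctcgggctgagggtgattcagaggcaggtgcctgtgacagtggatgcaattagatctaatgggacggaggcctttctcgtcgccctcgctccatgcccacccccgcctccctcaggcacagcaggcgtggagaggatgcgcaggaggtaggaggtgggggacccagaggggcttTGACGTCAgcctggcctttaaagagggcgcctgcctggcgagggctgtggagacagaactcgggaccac
Slc6a3: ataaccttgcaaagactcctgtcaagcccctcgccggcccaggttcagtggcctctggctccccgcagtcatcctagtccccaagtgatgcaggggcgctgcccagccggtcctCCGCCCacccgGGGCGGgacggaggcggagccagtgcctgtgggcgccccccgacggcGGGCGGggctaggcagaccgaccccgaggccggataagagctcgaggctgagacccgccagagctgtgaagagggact
Slc18a2: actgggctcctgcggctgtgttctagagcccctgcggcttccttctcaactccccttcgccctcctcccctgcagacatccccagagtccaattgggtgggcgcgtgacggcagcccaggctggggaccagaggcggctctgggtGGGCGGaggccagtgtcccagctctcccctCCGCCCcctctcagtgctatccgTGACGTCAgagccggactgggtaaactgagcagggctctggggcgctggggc
Th and Slc18a2 each hold 1 full CRE, beginning 69 and 52 bases before the start, and they are the 2 members among the 44 with a RefSeq window that hold one. A CRE is the binding site of CREB, which cyclic AMP signalling activates.

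Slc6a3 stood at 7.19, 9.16, 7.04 and 7.46 on chow 1 to 4 and at 9.24, 7.19, 7.29, 7.23 and 7.20 on powder 1 to 5. One array in each group, chow 2 and powder 1, lay far above the rest, and the other 7 fell within 7.04 to 7.46. Th stood at 7.70, 8.51, 7.27 and 7.35 on the chow arrays and at 8.30, 6.96, 7.60, 7.42 and 7.07 on the powder arrays, so the same arrays were the highest. The dimmer, wide probe set of Slc18a2 read 7.29, 7.44, 6.91 and 7.12 under chow and 7.30, 6.91, 6.97, 7.09 and 6.91 under powder, again highest on chow 2 and powder 1, with chow 1 close to the latter. This likeness over 9 arrays is a description, since all values come from the same RNA samples. With 1 high array in each group, the diet differences were small beside their errors: 0.085 ± 0.611 for Slc6a3 (adjusted p = 0.922), 0.24 ± 0.357 for Th (0.624) and 0.15 ± 0.127 for that Slc18a2 probe set (0.362 over all probe sets). Without chow 1 these differences were 0.26, 0.24 and 0.12. Leaving out chow 2 turned Slc6a3 to -0.40 and Th to -0.03, and leaving out powder 1 gave 0.49 and 0.45, none of them called. The second Slc6a3 probe set was narrow (span 0.000642) and not called (0.000141), and chow 2 and powder 1 were its highest arrays too.

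Of the monoamine neuron marker list, 9 of 10 were measured and only Th and Slc6a3 were wide, so its mean adds nothing to these 2 genes. Hypothalamic markers (5 of 6 measured) did not follow the same arrays, with a mean of 8.20 on chow 2, 7.38 on powder 1 and 7.92 to 9.13 elsewhere. Whether more midbrain tissue entered these samples was not tested.

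**Figure D2:**
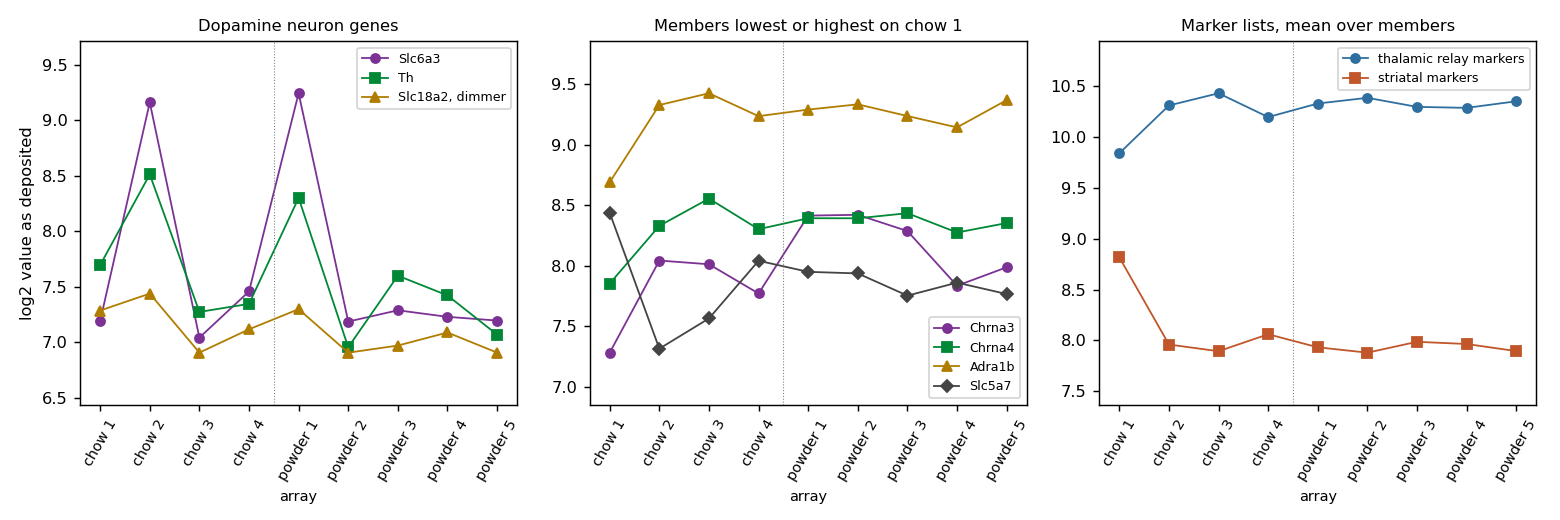
Deposited log2 values of each array, with the diets separated by the dotted line: dopamine neuron genes (left), members extreme on chow 1 (middle), and the mean of the relay and striatal marker lists (right). Slc6a3 peaks on chow 2 (9.16) and powder 1 (9.24), and the relay markers are lowest (9.84) and the striatal markers highest (8.82) on chow 1.

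The remaining monoamine enzymes and transporters were narrow. Dbh turns dopamine into noradrenaline. It deviated from its mean by -2.79, 3.67, 0.86 and 3.20 ten-thousandths on chow 1 to 4 and by -2.73, 0.36, -0.26, -2.38 and 0.08 on powder 1 to 5. The groups overlapped and chow 1 was the lowest array (0.000222, adjusted p = 0.261). Hdc makes histamine, and its deviations were 0.90, 1.04, -0.99 and 0.80 under chow and -0.55, -1.10, -0.26, -0.29 and 0.45 under powder. It was not called (adjusted p = 0.254). It was called without chow 3, which lay below the other chow arrays (0.000126, adjusted p = 0.0383), and with array medians subtracted (0.00665). Ddc, which completes the synthesis of dopamine and serotonin, was not called on its brightest probe set (adjusted p = 0.906). A dimmer Ddc probe set, also narrow, was called higher without overlap (0.000285, adjusted p = 0.00297 over all probe sets).

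Slc6a4, the serotonin reuptake transporter, was the 1 of the 6 transporters on the list that was called on its brightest probe set. Its deviations were 2.94, 0.40, 0.82 and 0.84 on chow 1 to 4 and -1.07, -1.30, -0.82, -1.35 and -0.45 on powder 1 to 5. The groups did not overlap, and the difference was 0.000225 ± 5.34e-05 (adjusted p = 0.0190), or 0.000168 without chow 1, its highest array. After quantile normalization it was 0.000918 and not called. The brightest Slc18a2 probe set, also narrow, deviated by 3.21, 5.37, -1.46 and 2.08 under chow and by 1.58, -3.35, -2.90, -0.62 and -3.91 under powder. It overlapped and was not called (adjusted p = 0.0909), except without chow 3 (adjusted p = 0.0381), with quantile normalization (0.0081) or with medians subtracted (0.00699). Another narrow and dimmer Slc18a2 probe set was called higher without overlap (0.000255, adjusted p = 0.0276 over all probe sets). The noradrenaline transporter Slc6a2 was not called (0.000556, adjusted p = 0.119).

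The enzyme and transporters of acetylcholine on the list gave 0 calls. Chat joins choline to acetyl-CoA, Slc5a7 takes choline up into the terminal, and Slc18a3, the immediate neighbour of Chat in the gene order, loads acetylcholine into vesicles. Chat stood at 7.16, 6.85, 6.93 and 6.96 on chow 1 to 4 and at 6.99, 7.06, 6.91, 7.0 and 6.91 on powder 1 to 5. Slc5a7 stood at 8.44, 7.31, 7.56 and 8.04 under chow and at 7.95, 7.94, 7.75, 7.86 and 7.77 under powder. Both were highest on chow 1 and lowest on chow 2, so the chow group enclosed the powder group. The Chat difference was 0.00 ± 0.064 (adjusted p = 0.999), and -0.06 without chow 1. For Slc5a7 it was -0.01 ± 0.218 (adjusted p = 0.965), and -0.21 without chow 1. Slc18a3 was narrow and not called (0.000155, adjusted p = 0.263). The striatum holds cholinergic neurons, and its markers were also highest on chow 1, but that link was not tested.

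Nicotinic subunits form the ligand-gated channels of acetylcholine. Chrna3 lies between Chrna5 and Chrnb4 in the gene order, and Chrna3 and Chrnb4 are best known from the medial habenula, which borders the thalamus. Chrna3 stood at 7.28, 8.04, 8.01 and 7.77 on chow 1 to 4 and at 8.41, 8.42, 8.29, 7.83 and 7.99 on powder 1 to 5. Powder 1 to 3 were above all chow arrays and chow 1 was below all others, but the groups overlapped. The difference of -0.41 ± 0.199 (0.751-fold) was the largest in size of all members and was not called (adjusted p = 0.144), and without chow 1 it was -0.25. The medial habenula list, of which 4 of 8 were measured and Chrna3 and Chrnb4 are part, averaged 7.10 to 7.47 under chow and 7.25 to 7.55 under powder, with chow 1 the lowest. Chrnb4 and Chrna5 were narrow and not called (adjusted p = 0.682 and 0.827).

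Chrna4, with Chrnb2 the main high-affinity nicotinic receptor of the thalamus, stood at 7.85, 8.33, 8.56 and 8.30 under chow and at 8.39, 8.39, 8.43, 8.27 and 8.35 under powder. Only chow 1 was below the powder range and chow 3 was above it. The difference of -0.11 ± 0.129 (adjusted p = 0.528) changed sign without chow 1, to 0.03. Chrnb2 was narrow and not called (adjusted p = 0.512). Of the 8 subunits on the list the called ones were Chrna6 and Chrna7, both narrow. Chrna6, known from dopamine terminals and adjacent to Chrnb3 in the genome, deviated by 0.64, 4.02, 1.91 and 2.05 ten-thousandths on chow 1 to 4 and by -1.32, -2.28, -3.52, -1.23 and -0.26 on powder 1 to 5. The groups did not overlap (0.000388 ± 8.58e-05, adjusted p = 0.0152). Chrna7, the fast calcium-permeable subunit, differed by 0.000217 (adjusted p = 0.0211), while Chrnb3 was not called (adjusted p = 0.289).

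All 5 muscarinic receptors, the G protein-coupled receptors of acetylcholine, were narrow. Chrm1 and Chrm5, which couple to Gq, differed by 0.000448 and 0.000194 (adjusted p = 0.0309 and 0.0172), and Chrm2, which couples to Gi and acts as an autoreceptor, by 0.000496 (0.0230). The groups did not overlap for these 3, and 12.3% of all genes had every chow array above every powder array. Chrm3 and Chrm4 were not called (adjusted p = 0.635 and 0.445).

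**Figure D3:**
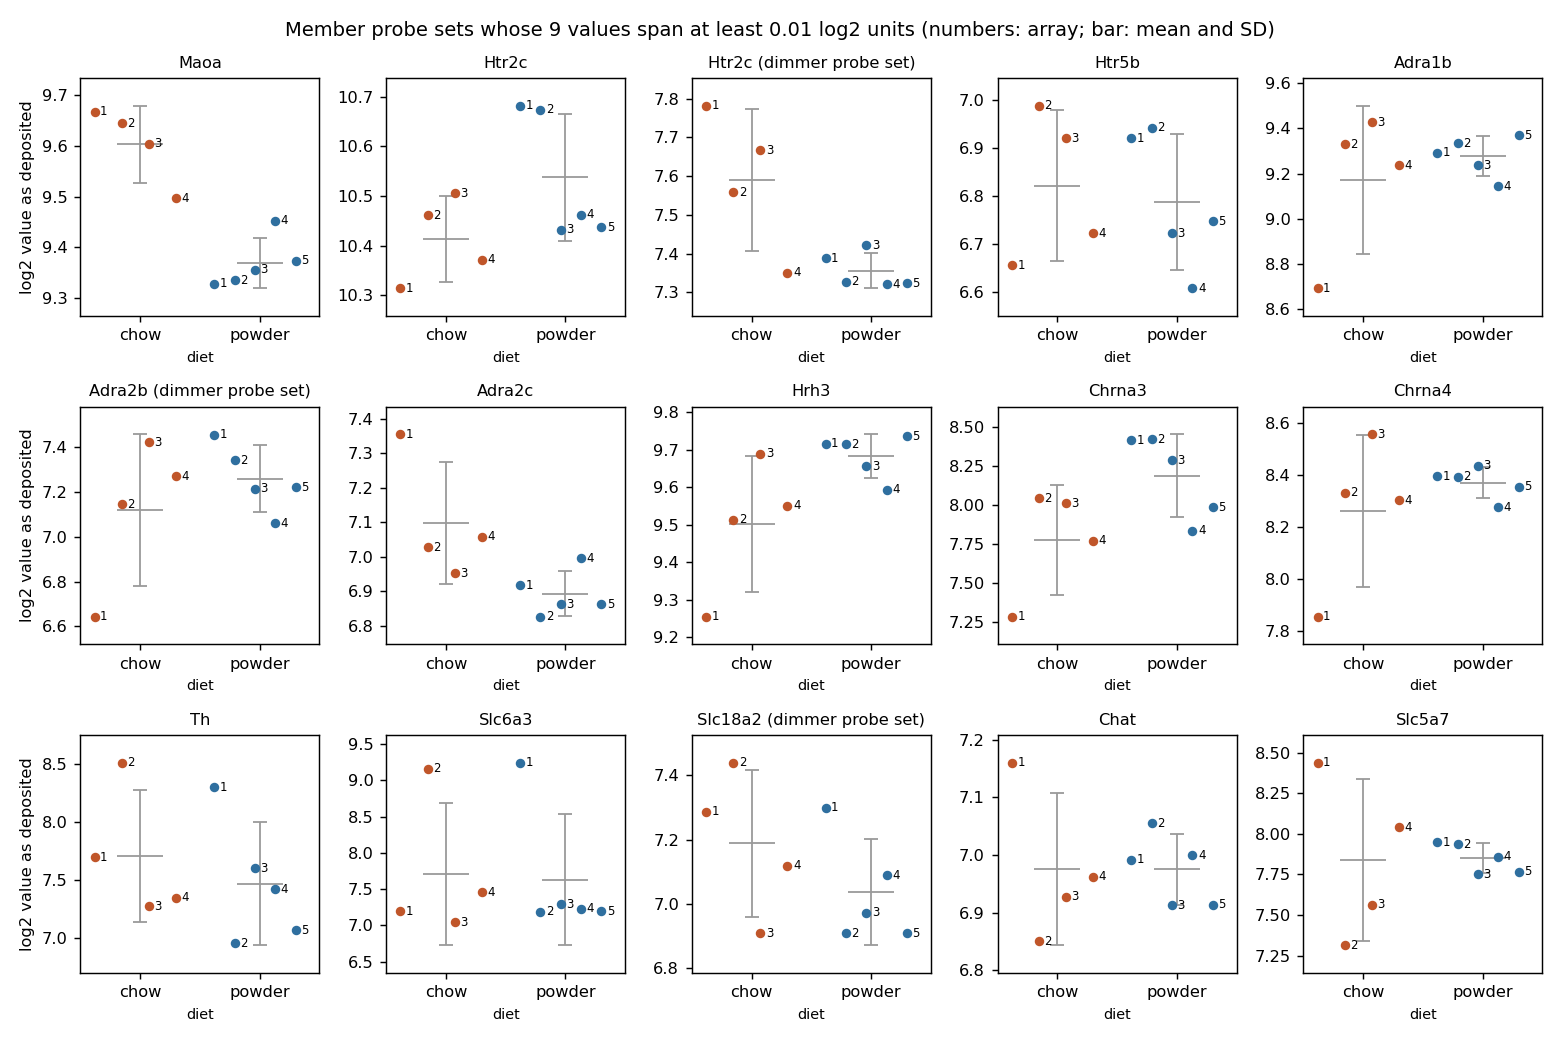
Deposited log2 values of the 15 wide member probe sets, 1 panel each, by diet. Points are arrays, numbered as in the text, and grey bars give the mean and SD. Only Maoa separates the diets, and chow 1 is the lowest or the highest array in 11 of the 15 panels.

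Serotonin receptors numbered 13, of which 2 were wide and neither of those was called. Htr2c, a Gq-coupled receptor, was at 10.31, 10.46, 10.51 and 10.37 on chow 1 to 4 and at 10.68, 10.67, 10.43, 10.46 and 10.44 on powder 1 to 5. Powder 1 and 2 lay above the rest, chow 1 and 4 lay below every powder array, and the remaining 5 arrays were intermixed (-0.12 ± 0.073, adjusted p = 0.218, and -0.09 without chow 1). The dimmer Htr2c probe set went the opposite way: it read 7.78, 7.56, 7.67 and 7.35 under chow and 7.39, 7.33, 7.42, 7.32 and 7.32 under powder. There 3 chow arrays were above all powder arrays and chow 4 was within their range. Its difference was 0.23 ± 0.081 with adjusted p = 0.0596 over all probe sets and 0.0304 when only wide probe sets were fitted (59.5% of which were called in either direction and 17.8% higher), and 0.17 without chow 1. The 2 probe sets thus give no single direction for Htr2c.

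Htr5b, the other wide serotonin receptor, stood at 6.66, 6.99, 6.92 and 6.72 under chow and at 6.92, 6.94, 6.72, 6.61 and 6.75 under powder. The groups were intermixed (0.03 ± 0.097, adjusted p = 0.802, and 0.09 without chow 1). Called on narrow probe sets were Htr3a, the channel-forming serotonin receptor subunit, Htr1b, the Gi-coupled receptor of terminals, and Htr5a, Htr4 and Htr2a. Htr3a deviated by 2.89, 1.19, 1.35 and 1.17 ten-thousandths on chow 1 to 4 and by -1.20, -2.22, -1.39, -0.36 and -1.43 on powder 1 to 5 (0.000297 ± 4.92e-05, adjusted p = 0.00652). For Htr1b the deviations were 3.06, 1.07, 1.98 and 0.57 under chow and -0.65, -2.11, -1.61, -0.42 and -1.89 under powder (0.000301, adjusted p = 0.0116). For Htr5a they were 1.69, 1.77, 1.48 and 0.48 under chow and -1.67, -0.25, -2.05, -0.06 and -1.39 under powder (0.000244, adjusted p = 0.0132). No powder array reached a chow array in any of these 3, and chow 1 was the highest array for Htr3a and Htr1b. Such a separation with chow above was found for 12.3% of all genes. Htr4 and Htr2a differed by 0.000173 and 0.000262 (adjusted p = 0.0373 and 0.0435). A dimmer Htr4 probe set was not called (1.25e-05, adjusted p = 0.916 over all probe sets). A dimmer Htr2a probe set was called higher with overlap (0.000203, adjusted p = 0.0436 over all probe sets). The other Htr2a probe sets were not called (0.00019 and -7.42e-05). The other 6 narrow receptors, Htr1a, Htr1d, Htr1f, Htr2b, Htr6 and Htr7, ran from -7.74e-05 (Htr7) to 0.000264 (Htr1f) and were not called. Htr3a and Htr5a were no longer called after quantile normalization.

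The 3 dopamine receptors on the list were all narrow and all called. Among all narrow genes, 25.2% of the dimmest band and 21.7% of the next were called higher. Another 2 dopamine receptors, measured among the pathway genes below, were wide and not called (0.15 ± 0.188 and 0.35 ± 0.191, adjusted p = 0.559 and 0.190). Both were highest on chow 1. The first stood there at 8.37 against 7.41 to 7.57 on the other chow arrays, and the second at 8.15 against 7.18 to 7.39. Drd5, which couples to Gs, deviated by 4.12, 1.64, 1.39 and 1.41 ten-thousandths on chow 1 to 4 and by -1.34, -1.41, -1.86, -1.52 and -2.43 on powder 1 to 5. Its difference was 0.000385 ± 6.15e-05 (adjusted p = 0.00584, the smallest of all members in the fit over genes), and 0.000319 without chow 1, its highest array. Drd3, a Gi-coupled receptor, deviated by 2.56, 3.54, 1.38 and 3.13 under chow and by -3.51, -1.86, -1.60, 0.10 and -3.75 under powder (0.000477 ± 8.78e-05, adjusted p = 0.00865). Drd4, its close relative, differed by 0.000325 (adjusted p = 0.0207). On these probe sets the groups did not overlap in any of the 3. Over all genes, 12.3% had every chow array above every powder array. A dimmer Drd4 probe set was called higher with overlap (0.000284, adjusted p = 0.0393 over all probe sets). The dimmest Drd4 probe set overlapped and was not called (0.234). Drd3 was not called after quantile normalization.

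Adrenergic receptors answer noradrenaline from the locus coeruleus. Adra1b, a Gq-coupled receptor abundant in the thalamus, stood at 8.69, 9.33, 9.43 and 9.24 on chow 1 to 4 and at 9.29, 9.33, 9.24, 9.14 and 9.37 on powder 1 to 5. Chow 1 was low, chow 3 was just above the powder range, and the other chow arrays lay within it. The difference of -0.10 ± 0.147 (adjusted p = 0.598) became 0.06 without chow 1. Adra2c, a Gi-coupled receptor that limits transmitter release, stood at 7.36, 7.03, 6.95 and 7.06 under chow and at 6.92, 6.83, 6.86, 7.0 and 6.86 under powder. Chow 1 was the highest array, and chow 3 lay within the powder range. The difference of 0.21 ± 0.082 was not called over all genes (adjusted p = 0.0899) and was 0.12 without chow 1. It passed when only wide probe sets were fitted (0.04997), of which 59.5% were called and 17.8% higher. It also passed with array medians subtracted (0.21, adjusted p = 0.0316), where most genes were called higher.

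Adra2b was narrow on its brightest probe set and not called. Its wide, dimmer probe set read 6.64, 7.14, 7.42 and 7.27 under chow and 7.45, 7.34, 7.21, 7.06 and 7.22 under powder (-0.14 ± 0.161, adjusted p = 0.511 over all probe sets). Chow 1 was again the low array, and without it the difference was 0.02. Adrb1, the Gs-coupled beta receptor of neurons, was the 1 called of the 7 adrenergic receptors on the list and was narrow. It deviated by 1.40, 1.41, 1.58 and 0.91 ten-thousandths on chow 1 to 4 and by -1.0, -1.10, 0.22, -1.94 and -1.47 on powder 1 to 5. The groups did not overlap (0.000238 ± 4.28e-05, adjusted p = 0.00811), and it was not called after quantile normalization. Adra1a, Adra1d and Adra2a were narrow and not called (adjusted p = 0.529, 0.339 and 0.718).

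Of the histamine receptors, Hrh3 is the Gi-coupled autoreceptor and heteroreceptor found on histamine and other terminals and on thalamic neurons. It stood at 9.25, 9.51, 9.69 and 9.55 on chow 1 to 4 and at 9.72, 9.71, 9.66, 9.59 and 9.74 on powder 1 to 5. Chow 1, 2 and 4 lay below all powder arrays and chow 3 within them. The difference of -0.18 ± 0.083 (0.882-fold) was not called (adjusted p = 0.125). It was -0.10 without chow 1 and -0.24 without chow 3. Hrh1, the Gq-coupled receptor that depolarises relay neurons, was narrow and called with overlapping groups (0.000192, adjusted p = 0.0352). The Gs-coupled Hrh2 was narrow and not called (adjusted p = 0.254).

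Counted over probe sets instead of genes, 22 of the 74 were called, all higher, against 34.6% of all probe sets called and 17.9% higher. The count was 14 without chow 2, and 15 without powder 1, powder 2 or powder 3.

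Upstream windows of 250 bases were found in RefSeq for 44 of the 55 genes. The CRE occurred in 2 of the 44 and in 1.59% of the 33469 windows in the table. The GC box was present in 25 members and in 30.5% of all windows, and the median G and C content was 62.2% over the members' windows and 51.2% over all. The TATA box (TATAAA) was present in 3 members and 12.9% of all windows. The Nurr1 element (AAAGGTCA) was present in 2 members, Ddc and Slc5a7, and in 1.24% of all windows. The windows of Th, Slc6a3 and Slc18a2 did not hold it. Each motif was searched on both strands. A match is a match of letters only, and its absence says only that these letters are not in the window.

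Beyond the 53 genes, 66 of 79 listed genes of the same pathways were measured: 14 were higher under chow and 9 lower, where 14.2% and 18.8% of all genes were. By list these were 5 higher and 0 lower of 13 further receptors, 4 and 1 of 14 genes of synthesis, transport and degradation, 0 and 2 of 6 receptor partners, and 5 and 6 of 33 genes of the coupled signalling. Of the 21 wide ones 5 were higher and 3 lower, where 9.03% and 40.2% of all wide genes were. On the brightest probe sets, all 5 wide higher ones were alpha subunits of heterotrimeric G proteins, the first relay of most receptors above, and this subset was singled out after its values were seen. Of 10 listed alpha subunits 9 were measured, 5 were higher and 1, the narrow Gnaz, was lower. Each of the 5 higher ones rests on a single probe set, so its direction could not be compared with another. Dimmer wide probe sets were also called higher, without overlap, for the G protein regulators Rgs4 (0.35 ± 0.083, adjusted p = 0.0187 over all probe sets) and Rgs2 (0.29 ± 0.090, 0.0423) and the kinase subunit Prkacb (0.31 ± 0.078, 0.0234). A dimmer wide probe set of the choline transporter Slc44a1 was called lower, with overlap (-0.25 ± 0.072, 0.0345). The brightest probe sets of the first 3 genes were not called, at -0.07 (Rgs4), 8.88e-05 (Rgs2, narrow) and -0.02 (Prkacb).

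Gnao1 encodes the Go subunit of the inhibitory receptors. It stood at 10.49, 10.48, 10.56 and 10.34 on chow 1 to 4 and at 10.05, 10.09, 10.07, 10.24 and 10.04 on powder 1 to 5 (0.37 ± 0.056, 1.30-fold, adjusted p = 0.00460). Gnai1 stood at 9.40, 9.22, 9.28 and 9.27 under chow and at 8.93, 8.87, 9.01, 9.05 and 9.05 under powder (0.31 ± 0.051, adjusted p = 0.00655). Gnai2, its close relative in the same Gi class, stood at 10.22, 10.09, 9.88 and 10.03 and at 9.62, 9.64, 9.74, 9.76 and 9.74 (0.35 ± 0.069, adjusted p = 0.0102). All 4 chow arrays lay above all 5 powder arrays in each of these Gi and Go genes, as in 12.3% of all genes. They serve receptors such as Htr1b, Adra2c, Hrh3, Drd3 and Chrm2.

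The Gq class serves Htr2c, Adra1b, Hrh1 and Chrm1. Gnaq stood at 8.09, 7.98, 8.14 and 7.89 under chow and at 7.56, 7.52, 7.55, 7.81 and 7.62 under powder (0.41 ± 0.075, 1.33-fold, adjusted p = 0.00829). Gna11 stood at 7.80, 7.64, 7.49 and 7.59 and at 7.35, 7.37, 7.38, 7.45 and 7.42 (0.24 ± 0.059, adjusted p = 0.0222). The groups did not overlap in either gene, and powder 4 was the powder array nearest to chow in both. Gna11 was not called without chow 2 (adjusted p = 0.0521) or powder 1 (0.0510), whereas the other 4 were called with each array left out. Gnas, the Gs subunit, was narrow on its brightest probe set and not called. Of its wide, dimmer probe sets 1 was not called (0.14 ± 0.116, adjusted p = 0.355 over all probe sets). The other was called higher, with overlap (0.14 ± 0.046, 0.0468).

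**Figure D4:**
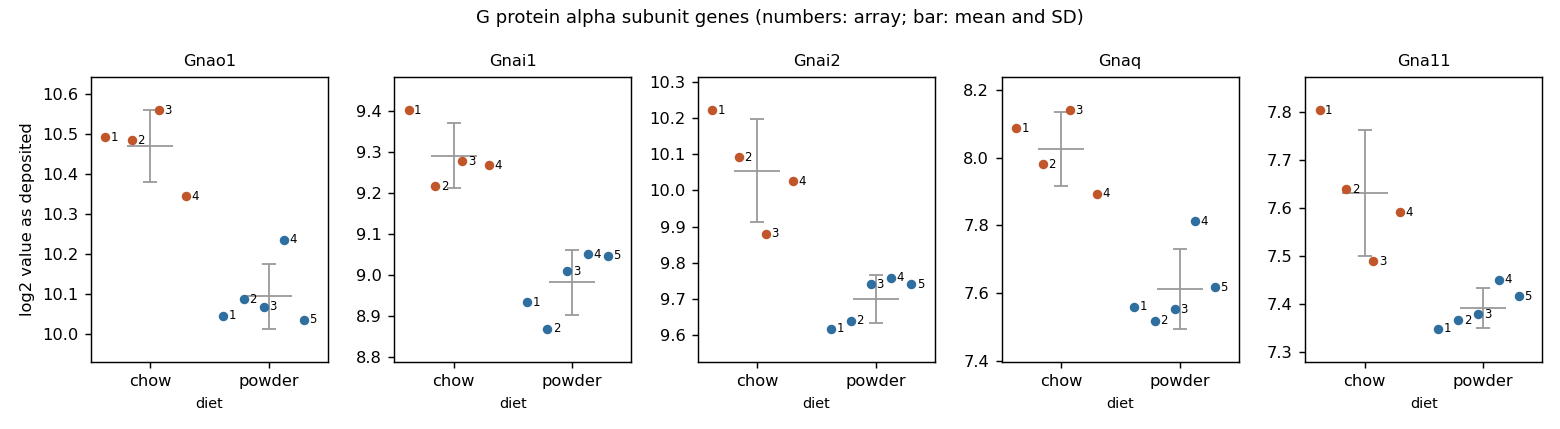
Deposited log2 values of the 5 wide G protein alpha subunit genes by diet, with each array numbered and grey bars for the mean and SD. In all 5 panels the 4 chow arrays lie above the 5 powder arrays, by 0.24 to 0.41 log2 units on average. The genes were singled out after their values were seen, and 12.3% of all genes separate in this direction.

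The 3 wide pathway genes called lower were Chka, the choline kinase that diverts choline into phospholipid, Prkar1a, a regulatory subunit of the cyclic AMP-dependent kinase, and Lynx1, a membrane protein that restrains nicotinic receptors. Chka stood at 8.69, 8.64, 8.60 and 8.58 on chow 1 to 4 and at 8.78, 8.73, 8.83, 8.84 and 8.80 on powder 1 to 5, without overlap (-0.17 ± 0.031, adjusted p = 0.00864). Prkar1a stood at 11.99, 11.97, 11.99 and 11.99 under chow and at 12.01, 12.02, 12.01, 12.02 and 12.03 under powder, without overlap (-0.03 ± 0.0062, adjusted p = 0.00879), but a dimmer wide probe set of the same gene was called the other way (0.17 ± 0.047, adjusted p = 0.0267 over all probe sets). Its direction is therefore not settled. Lynx1 stood at 10.21, 10.34, 10.46 and 10.31 under chow and at 10.57, 10.47, 10.42, 10.52 and 10.55 under powder, with chow 3 inside the powder range (-0.18 ± 0.054, adjusted p = 0.0411). It was called without chow 3 or powder 3 and was not called without any one of the other 7 arrays (adjusted p from 0.0631 to 0.0866), with a difference of -0.14 without chow 1. A dimmer wide Lynx1 probe set had all chow arrays above all powder arrays and was not called (0.04 ± 0.012, adjusted p = 0.0614 over all probe sets), so the direction of Lynx1 is not settled either.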

How the data were processed

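Sample titles gave the groups and the replicate numbers. The RNA was prepared with TRIzol and RNeasy columns, and 100 ng was labelled with biotin, per the labels. The authors deposited 1 value per probe set and array, read here as log2 from its range (5.37 to 14.0). How they corrected background, summarised probes and normalized arrays is not stated in the sources used here. No detection calls were used. The number of arrays limits the precision.

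Gene names came from the platform annotation. Each gene took the value of the brightest probe set (by mean over 9 arrays) that carries its symbol alone. After 57 control probe sets were left out, chow was compared with powder with limma 3.58.1 (lmFit, eBayes) in R 4.3.3, without covariates, over all genes and over all probe sets, with an adjusted p under 0.05 as the call. Values are differences ± SE from limma unless SD is stated. Members, lists and tests were chosen with earlier results of these data known. Full values were given for wide members, the 8 called members of smallest p, the main enzymes and transporters, and wide called pathway genes. Alternatives were 2 rescalings, a trended robust variance, filters on dim and narrow probe sets, the median over probe sets, a replicate block, no moderation, a minimum difference and leaving out each array. In a simulation of the 14217 genes with independent normal noise, 200 wide genes were changed and all others were not. There 31% of changes of 0.25 and 75% of changes of 0.5 log2 units were recovered. In the deposited data 32.9% of genes were called, so the shares recovered there may differ.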

Additional observations from a re-analysis of the deposited data

Results flagged for a closer look

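A value was taken up here when the highest or lowest array of a diet group stood apart from the rest of its group by Dixon's criterion at the 95% level. This was applied to 70 groups on 35 probe sets, and 6 met it, where about 1 in 20 groups (3.5) would do so by chance. On powder 1, Slc6a3, the dopamine transporter, stood at 9.24 against 7.19 to 7.29 on the other powder arrays. Chow 1 was the array apart in 3 narrow members: Drd5 (7.08842 against 7.08814 to 7.08817), Htr3a (6.82368 against 6.82351 to 6.82352) and Maob (9.30227 against 9.30192 to 9.30197). In Hdc, chow 3 lay below its group, at 6.95044 against 6.95062 to 6.95065. In Gnao1, powder 4 lay above its group, at 10.2 against 10.0 to 10.1, and still below every chow array.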

How the results depend on the processing

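Counts of called features depended on the handling of narrow probe sets and on scaling, while the direction of Maoa was positive in every alternative. Quantile normalization gave 9329 called genes. With array medians subtracted there were 13245, with 43 members higher, 2 wide members (Maoa and Adra2c), 54 pathway genes and 62 member probe sets. Pathway calls were 31 higher and 3 lower, and 50 higher and 4 lower, under these rescalings. Without the dimmest 25% of probe sets, 14 member probe sets were called. Without narrow probe sets, 1 member, 1296 genes, 8 pathway genes and 3 member probe sets were called. With a minimum difference of 0.1, 99 genes were called, and 0 members, wide members, pathway genes and member probe sets, with Maoa at 0.23 and not called.

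The labels do not say whether the replicate numbers pair samples across diets. As deviations from the diet mean over wide genes, same-numbered arrays correlated at -0.377 to 0.16. Of 4 such pairs 1 exceeded 0.1, and 0 chow arrays correlated best with their own number. With 4 chow arrays and chow 1 standing apart, these correlations cannot decide whether the samples are paired. With the number as a replicate block, 11 genes and 0 members, wide members, pathway genes and member probe sets were called, and Maoa was 0.24 (adjusted p = 0.108).

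Leaving out each array in turn, 12 to 18 members were higher and 0 to 2 lower, 1 to 2 wide members, 14 to 23 member probe sets, 17 to 29 pathway genes (11 to 17 higher, 6 to 12 lower) and 3367 to 4413 genes were called, and Maoa was 0.21 to 0.27. Among members not called, single arrays turned the sign of Maob (-8.39e-05 to 4.99e-05), Th (-0.031 to 0.45), Slc6a3 (-0.40 to 0.49), Slc5a7 (-0.21 to 0.16), Chat (-0.062 to 0.042), Htr5b (-0.022 to 0.089), Adra1b (-0.19 to 0.055) and Chrna4 (-0.21 to 0.026). Maob became positive and was called with quantile normalization (0.0294) and medians subtracted (0.00657). Taking the median of all probe sets of a gene turned Prkar1a to 0.000105 (adjusted p = 0.491) and Htr2c to 0.055 (0.451), and the block, in which powder 5 has no partner and adds nothing, turned Slc6a3 to -0.024, Chat to -0.015 and Maob to 7.57e-06. Of 543 comparisons of a named gene with an alternative, 456 kept direction and side of the threshold, 49 were no longer called, 8 became called and 30 changed sign. Subtracting array medians shifted each difference by 0.00657, more than the whole span of any narrow member.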
